A study of Mus musculus with 6 samples.

Results

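The genes described here build and sulfate chondroitin sulfate, a sugar chain attached to proteoglycans. They are 8 of the 54532 genes of the count table: Csgalnact1, Csgalnact2, Chsy1, Chpf, Chst11, Chst12, Chst7 and Chst15. The set was chosen by the large rise of Chst11 between the genotypes, together with enzymes of the same pathway. Differences of these 8 genes between the groups are therefore given as a description, with no test.

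The RNA was from sorted Kupffer cells, the macrophages that line liver sinusoids, of male mice on a high fat diet. One group was Trem2-deficient (Trem2_KO) and the other wild-type littermates (WT), with 3 libraries each. The diet began at 8 weeks of age and lasted 8 weeks in both groups. TREM2 is a receptor on macrophages that binds lipids. The sources used here state neither how the Trem2 allele was made nor whether each library is 1 mouse. The p-values thus measure only how these samples vary, and that variation may be technical. In bulk RNA, fewer cells of a type and less RNA per cell cannot be told apart.

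Total counts were 15799351 to 17135603 per library, and a count of 3, the limit that a count of 0 allows, equals a CPM, a count scaled to library size, of 0.173 to 0.192. Trem2 was read 1319 to 1409 times in WT and 246 to 288 times in Trem2_KO. Kupffer cell markers, among them Clec4f, Cd5l and Csf1r, summed to 38100 to 39300 CPM in WT and 34700 to 35100 CPM in Trem2_KO over 8 genes. Of these, 6 were called lower and 0 higher with edgeR, and the largest log2 change was that of Marco, -1.11, with means of 1330 ± 21.4 CPM in WT and 618 ± 24.7 in Trem2_KO (SD, n = 3). Of the 13776 genes tested with edgeR's quasi-likelihood test, 2103 were called higher and 2078 lower in Trem2_KO at a Benjamini-Hochberg adjusted p under 0.05. That is 30.3% of tested genes, 15.3% higher and 15.1% lower, and 50.3% of the calls were higher (61.2% with total counts in place of TMM scaling).

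Chondroitin sulfate is made in the Golgi on a core protein. A linker of sugars is attached to a serine, an initiating enzyme adds the first N-acetylgalactosamine, and a polymerase complex extends the chain with alternating glucuronic acid and N-acetylgalactosamine. Sulfotransferases then place sulfate on carbon 4 or carbon 6 of N-acetylgalactosamine, or on both. In macrophages the chains are carried by serglycin in granules and by forms of CD44 and of the MHC class II invariant chain.

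The promoters of Chst11 and Chsy1 are shown because these are the members that were higher in Trem2_KO. Each is the stretch of 250 bases before the RefSeq start site (GRCm38.p6), at chr10:82985247-82985496 on the plus strand for Chst11 and at chr7:66109242-66109491 on the plus strand for Chsy1. Capitals mark matches to any of 4 motifs, searched on both strands. They were the palindromic E-box CACGTG, the related M-box spelled as CATGTG, the AP-1 site with one free position, TGANTCA, and the core shared by many ETS factor sites, AGGAAG.
Chst11: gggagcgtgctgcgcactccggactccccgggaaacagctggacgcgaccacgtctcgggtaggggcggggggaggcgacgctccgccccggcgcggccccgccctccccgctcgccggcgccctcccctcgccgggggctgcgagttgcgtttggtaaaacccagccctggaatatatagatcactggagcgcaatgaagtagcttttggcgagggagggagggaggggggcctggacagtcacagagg
Chsy1: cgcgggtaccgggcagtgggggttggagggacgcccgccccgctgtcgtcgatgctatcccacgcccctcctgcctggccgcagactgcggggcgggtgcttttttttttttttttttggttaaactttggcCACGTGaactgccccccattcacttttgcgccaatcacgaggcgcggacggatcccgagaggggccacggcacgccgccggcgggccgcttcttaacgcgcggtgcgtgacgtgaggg

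The Chst11 stretch held none of these 4 motifs, and the Chsy1 stretch held CACGTG once, 118 to 113 bases before the start. Of 32841 RefSeq promoter stretches of the same length, 6.02% held the E-box, 12.3% the M-box, 6.75% the AP-1 site and 29.5% the ETS core. Both promoters were rich in CpG, with 26 CpG in Chst11 and 30 in Chsy1 against a median of 6. Fewer CpG were counted in 90.4% and 94.1% of all stretches, respectively. High counts were not particular to the members that were higher. Chpf held 21 CpG, Chst12 20 and Chst7 8. Chst15 held 14 and 20 at different starts, and Csgalnact2 12 and 30. A match describes letters only, and its use by a factor was not tested. RefSeq promoters were found for 7 of the 8 genes.

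Chst11 (ENSMUSG00000034612, chromosome 10, 82985498 to 83195900, plus strand, GRCm38) encodes a 4-O-sulfotransferase of chondroitin. Its 1 annotated transcript has 3 exons over 210403 bases. Chst11 was read 5, 3 and 5 times in WT and 105, 97 and 107 times in Trem2_KO. The lowest knockout library lay far above the highest WT library, and WT stood at or just above the limit of 3 counts. In CPM the levels were 0.277 ± 0.0736 in WT and 6.08 ± 0.204 in Trem2_KO (SD, n = 3). From summed reads, 13 in WT and 309 in Trem2_KO, the level was 22-fold higher, with a 95% interval of 12.7 to 41.7 (exact binomial, covering counting error only). The fitted log2 change was 4.42 (SE 0.294), the fifth highest of 12004 protein-coding genes tested.

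The 3 genes that overlap Chst11, Gm10773, 1700025N21Rik and Gm23122, lie on the opposite strand and were at 0 reads in each of the 6 libraries. The sources used here do not state whether the counting used strand, and without strand, reads from the opposite strand cannot be told apart.

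**Figure D1:**
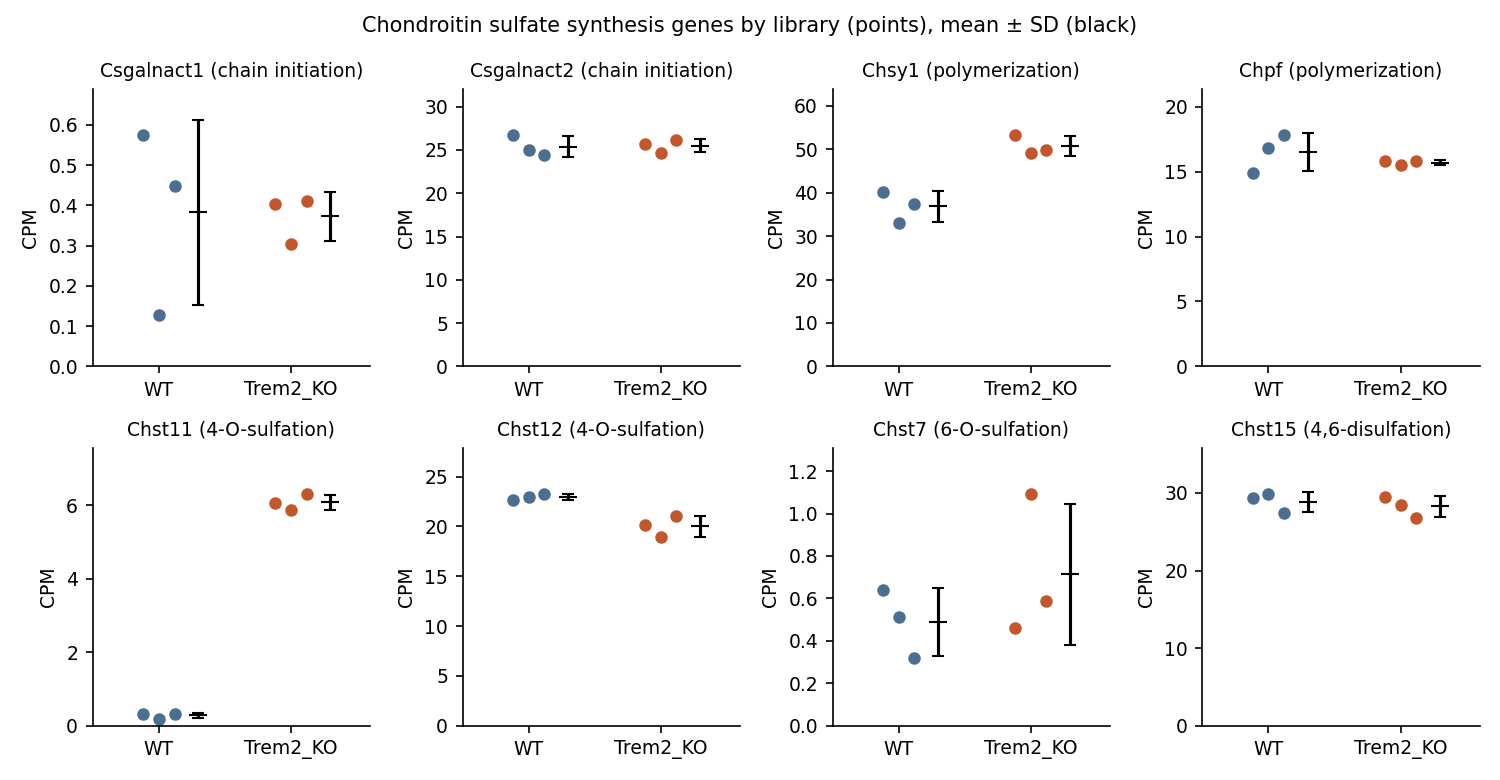
TMM-scaled CPM of the 8 chondroitin sulfate synthesis genes, 1 panel a gene with its own vertical axis from 0. Points are libraries, blue for WT and orange for Trem2_KO, and black bars are mean ± SD (n = 3). Chst11 rises from 0.277 to 6.08 CPM and Chsy1 from 36.9 to 50.7 CPM, while Chst12 is lower in each knockout library than in each WT library.

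Chst12 (ENSMUSG00000036599, chromosome 5, 140505550 to 140525724, plus strand) encodes the other main chondroitin 4-O-sulfotransferase. Its levels were 22.6, 22.9 and 23.2 CPM in WT and 20.1, 18.9 and 21 CPM in Trem2_KO. The groups did not overlap, each knockout library being lower. The log2 change was -0.19 (SE 0.0812), and the ratio of summed reads was 0.876 (95% counting interval 0.803 to 0.955).

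Chst15 (ENSMUSG00000030930, chromosome 7, 132235780 to 132317228, minus strand) encodes the enzyme that adds a 6-O-sulfate to 4-sulfated units, giving disulfated chondroitin. It was at 29.3, 29.8 and 27.4 CPM in WT and 29.5, 28.5 and 26.8 CPM in Trem2_KO. The groups overlapped, with a log2 change of -0.027 (SE 0.0711) and a ratio of 0.981 (0.911 to 1.06). Among overlapping genes, Fgfr2 on the same strand took 66 reads over the 6 libraries, Gm10584 took 5 and Gm44891 took 2, against 1354 reads of Chst15 in WT and 1437 in Trem2_KO.

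Chst7 (ENSMUSG00000037347, chromosome X, 20059560 to 20097521, plus strand), a 6-O-sulfotransferase, was read 10, 8 and 5 times in WT and 8, 18 and 10 times in Trem2_KO. It did not pass the filter on low counts. The groups overlapped, Trem2_KO replicate 2 was the highest library, and the ratio of summed reads was 1.45 (0.835 to 2.56). At this depth no difference in Chst7 was detected, and it was called in 0 of the 7 alternative fits that included it.

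Chsy1 (ENSMUSG00000032640, chromosome 7, 66109515 to 66173798, plus strand) encodes chondroitin synthase, which adds both sugars of the repeating unit. It was at 40.2, 33.1 and 37.3 CPM in WT and 53.2, 49 and 49.9 CPM in Trem2_KO. No knockout library reached down to the WT range. The means were 36.9 ± 3.61 and 50.7 ± 2.22 CPM (SD, n = 3), with a log2 change of 0.46 (SE 0.0627) and a ratio of 1.38 (1.29 to 1.46). On the opposite strand Gm18988 had 7 reads over all libraries, and Gm26827 and Gm23042 had 0.

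Chpf (ENSMUSG00000032997, chromosome 1, 75474569 to 75479307, minus strand) encodes the chondroitin polymerizing factor that works with the synthase. It was at 14.9, 16.8 and 17.8 CPM in WT and 15.8, 15.5 and 15.8 CPM in Trem2_KO. The knockout libraries lay inside the WT range, and the log2 change was -0.071 (SE 0.0949), the ratio 0.952 (0.861 to 1.05).

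The initiating enzymes add the first N-acetylgalactosamine. Csgalnact2 (ENSMUSG00000042042, chromosome 6, 118107452 to 118139140, minus strand) was at 26.7, 25 and 24.4 CPM in WT and 25.7, 24.7 and 26.1 CPM in Trem2_KO. Its groups overlapped, with a log2 change of 0.0085 (SE 0.0745) and a ratio of 1.01 (0.929 to 1.09). Csgalnact1 (ENSMUSG00000036356, chromosome 8, 68356781 to 68735146, minus strand) was read 9, 2 and 7 times in WT and 7, 5 and 7 times in Trem2_KO. It did not pass the filter, and its ratio of 0.976 (0.485 to 1.97) leaves a wide range of changes not detectable at this depth. The snoRNA gene Gm23908, which overlaps Csgalnact2 on the same strand, had 18 reads over the 6 libraries, against 1192 of Csgalnact2 in WT and 1297 in Trem2_KO. The 3 genes overlapping Csgalnact1, 1700125H03Rik, Gm15656 and Gm15654, had 0 reads.

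In all, 6 of the 8 genes passed the filter, Chst11 only through the Trem2_KO libraries. Of these, Chst11 and Chsy1 were called higher and 0 were called lower, beside 30.3% of all tested genes called. Over 16 alternative fits, Chst11 was called higher in 16 and Chsy1 in 15, its call being lost with a coefficient of variation fixed at 0.2. Chst12 was called lower in 2 of the 16, on log2(FPKM + 1) and log2(FPKM + 0.1) with the filter kept. The groups did not overlap for 3 of the 6, Chst11, Chsy1 and Chst12, beside 41.6% of all tested genes. The genotypes of these libraries chose the set, so these counts describe it. The spread between libraries of one group, which the choice did not use, was a pooled SD of 0.203 on the log2 CPM scale for Chst11. The other 5 tested members ranged from 0.0552 for Csgalnact2 to 0.11 for Chsy1, and the median over all tested genes was 0.103.

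Levels of different genes can be compared per length, for which the deposited FPKM (fragments scaled to gene length and library size) were used. In WT the order of mean levels was Chst12 at 9.65, Chsy1 at 8.8, Csgalnact2 at 4.65, Chpf at 4.27, Chst15 at 4.25, Chst7 at 0.221, Csgalnact1 at 0.0749 and Chst11 at 0.0499 FPKM. Library ranges overlapped between Chst12 and Chsy1, from Csgalnact2 through Chst15, and between Csgalnact1 and Chst11. In Trem2_KO, Chsy1 came first at 12.1 and Chst12 second at 8.43, with no overlap between them. Csgalnact2 (4.67), Chst15 (4.16) and Chpf (4.06) followed, the last pair overlapping. Chst11 stood sixth at 1.09, above Chst7 (0.322) and Csgalnact1 (0.0729). Its mean FPKM exceeded that of 0.29% of tested genes in WT and of 21.8% in Trem2_KO. Tested genes are those that passed the filter, which Chst11 did only through the Trem2_KO libraries. Its low place in WT thus follows in part from the filter and from how Chst11 was chosen.

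The large fold change of Chst11 was a small addition to the transcripts of its class. Chst11 gained 1.04 FPKM and Chst12 changed by -1.22 FPKM between the group means. Chst12 exceeded Chst11 by 7.53 to 7.83 times in the knockout libraries and by 166 to 279 times in WT, on the FPKM scale. The third 4-O-sulfotransferase, Chst13, was read 1 to 2 times in each library. Summed over these 3 genes, 4-O-sulfotransferase transcripts were at 9.67, 9.76 and 9.86 FPKM in WT and 9.62, 9.07 and 10 FPKM in Trem2_KO. The summed groups overlapped, with a ratio of 0.98 in FPKM, and 1.05 when the values were rescaled to one total per library (TPM). The share of this sum that came from Chst11 was 0.511% ± 0.136 in WT and 11.4% ± 0.214 in Trem2_KO (SD, n = 3).

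The 6-O-sulfotransferases Chst3 and Chst7 together were at 0.298, 0.26 and 0.242 FPKM in WT and 0.27, 0.585 and 0.355 FPKM in Trem2_KO. These groups overlapped, and the library at 0.585 was the one with 18 reads of Chst7. Chst15, the dermatan 4-O-sulfotransferase Chst14 and the uronyl 2-O-sulfotransferase Ust were then added to these and to the 4-O-sulfotransferases. The 8 chondroitin and dermatan sulfotransferases summed to 34.7 ± 0.301 FPKM in WT and 34.2 ± 0.843 in Trem2_KO (SD, n = 3). Their ratio was 0.987 in FPKM and 1.06 in TPM, so its direction depended on the scaling. The groups overlapped in FPKM. In TPM they did not, with sums of 106, 104 and 106 in WT and 113, 108 and 114 in Trem2_KO. Transcript sums do not measure enzyme activity or sulfation of chains.

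**Figure D2:**
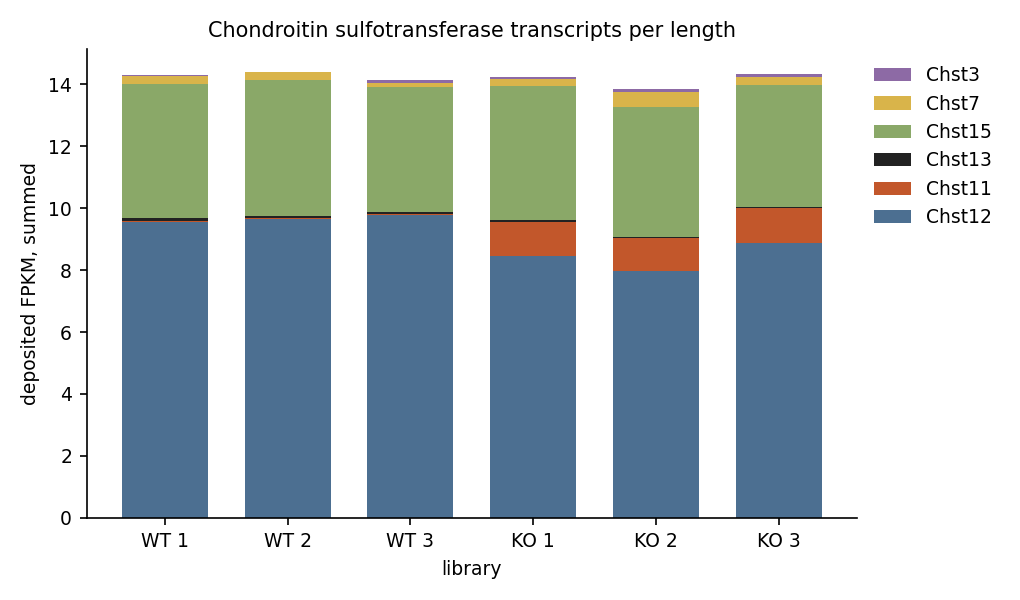
Deposited FPKM of 6 chondroitin sulfotransferase genes stacked for each library, with WT on the left and Trem2_KO (KO) on the right. Chst12 (blue) and Chst15 (green) fill most of every bar, and Chst11 (orange) makes up 11.4% of the 4-O-sulfotransferases Chst11, Chst12 and Chst13 in Trem2_KO on average.

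Genes of the rest of the pathway were taken from 7 lists of 94 genes in all, of which 58 could be tested. They were not part of the choice by Chst11, but were listed with earlier results of these data known. In Trem2_KO 8 were called higher and 16 lower, 41.4% in all, beside 30.3% of all tested genes (15.3% higher and 15.1% lower). The median log2 change of the 58 was -0.0071, beside -0.005 over all tested genes. The counts called in each list below, of pathway genes or markers, stand beside the same shares. Without WT replicate 3, 10 were called lower. DESeq2 called 6 higher and 7 lower, beside 1428 higher and 1385 lower over all genes.

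Among 8 other chondroitin and dermatan sulfate chain and sulfation genes, 5 were tested, 1 fell and 0 rose with edgeR, and the median log2 change was -0.012. Dse, the epimerase that turns chondroitin into dermatan by converting glucuronic to iduronic acid, was at 395, 398 and 408 CPM in WT and 342, 351 and 353 CPM in Trem2_KO. Its groups did not overlap, and it fell by 0.2 on the log2 scale (SE 0.0295, edgeR adjusted p = 2.28e-07). Its relative Dsel, at means of 8.93 ± 1.31 and 8.87 ± 1.43 CPM (SD, n = 3), did not pass. The polymerizing factor Chpf2 (log2 change 0.063), Chst14 (-0.13) and Ust (0.098) were not called either, with edgeR adjusted p of 0.513, 0.25 and 0.228. The untested Chsy3, Chst3 and Chst13 had at most 10 reads in any library.

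Of 5 tested genes of the linker, 1 fell and 0 rose with edgeR, and the median log2 change was 0.08. B3galt6, which adds a galactose of the linker, averaged 10.1 ± 0.97 CPM in WT and 7.61 ± 0.0983 in Trem2_KO (SD, n = 3). Its log2 change was -0.40 (edgeR adjusted p = 0.0112). Without WT replicate 1 it was not called (adjusted p = 0.0864), nor with DESeq2 (adjusted p = 0.0714). The xylosyltransferase Xylt2 (0.15), the glucuronosyltransferase B3gat3 (-0.089) and the xylose kinase Fam20b (0.08) were not called, but leaving out WT replicate 2 (adjusted p = 0.0342) or scaling by total counts (0.0272) made Xylt2 pass.

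Of 15 tested genes that supply the sulfate and sugar donors, 7 fell and 1, the sulfate transporter Slc26a2, rose, with a median log2 change of -0.15. Slc26a2 was not called without WT replicate 1 or 2 or Trem2_KO replicate 3, nor with DESeq2 or on the FPKM scales. The count of lower genes was 4 without WT replicate 1 or 3 or Trem2_KO replicate 1 or 2 and with total counts, and 2 with DESeq2. Papss2, a synthase of the sulfate donor PAPS, was at 17.5, 18 and 17.6 CPM in WT and 9.35, 13 and 13.7 CPM in Trem2_KO. Its knockout libraries were all below WT and replicate 1 was the lowest, with a log2 change of -0.56 (SE 0.108, edgeR adjusted p = 5.52e-05).

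Bpnt1, a phosphatase that clears the by-product of sulfation, fell by 0.34 on the log2 scale (edgeR adjusted p = 5.37e-05). Ugdh, which makes UDP-glucuronic acid, fell by 0.22 (adjusted p = 0.00899), a call lost when WT replicate 1 was left out (0.0527) and with DESeq2 (0.0575). The Golgi PAPS transporter Slc35b2 fell by 0.17 (adjusted p = 0.0155), a call lost without WT replicate 3 (adjusted p = 0.138) and without Trem2_KO replicate 1 or 2 (0.0764 and 0.0765). It was also lost with total counts (0.0518) and DESeq2 (0.0794). In the same libraries hepatocyte markers had 4 of 8 genes called lower and 1 higher, with sums of 1390 to 1460 CPM in WT and 1210 to 1260 CPM in Trem2_KO. Their part in the donor genes was not tested.

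Of 10 tested breakdown genes, 3 fell and 1 rose, with a median log2 change of -0.056. Without WT replicate 2 or Trem2_KO replicate 1, 2 were called higher. Hexa, a subunit of a lysosomal hexosaminidase, fell by 0.19 on the log2 scale (edgeR adjusted p = 1.01e-07). Gusb, the beta-glucuronidase, rose by 0.16 (adjusted p = 3.95e-05), with means of 260 ± 4.86 CPM in WT and 291 ± 2.07 in Trem2_KO (SD, n = 3). Arsb, the sulfatase that removes 4-O-sulfate, fell by 0.41 (adjusted p = 0.0166), a call lost without WT replicate 3 (adjusted p = 0.127) or Trem2_KO replicate 1 (0.119) and with DESeq2 (0.0981).

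Core proteins that can carry chondroitin sulfate moved in both directions, with 2 of 9 tested genes called higher, 1 lower and a median log2 change of 0.0015. Srgn, which encodes serglycin, was at 179, 180 and 169 CPM in WT and 198, 207 and 208 CPM in Trem2_KO. The groups did not overlap, and the log2 change was 0.22 (SE 0.0354, edgeR adjusted p = 2.03e-06). Thbd, thrombomodulin, rose by 0.25 (adjusted p = 1.09e-05). Cd74, the invariant chain, was the member that fell, by 0.71 on the log2 scale (adjusted p = 1.32e-31), with means of 5250 ± 129 CPM in WT and 3200 ± 86.3 in Trem2_KO (SD, n = 3). Cd44 averaged 902 ± 24.3 and 929 ± 12 CPM (SD, n = 3). It missed the threshold (edgeR adjusted p = 0.23) but passed when scaled by total counts (0.0293). Of the other 11 listed genes, 8 were at 0 reads in all libraries, among them Cspg4, Acan and Ncan. Esm1, singled out after its values were seen, had 0, 1 and 0 reads in WT and 14, 8 and 11 in Trem2_KO and did not pass the filter. Its ratio was 30.5, with a 95% counting interval of 5.11 to 1240, and rests on 1 WT read, all WT libraries other than replicate 2 being at 0. With no filter it passed (edgeR adjusted p = 7.82e-05), and 3 core protein genes were then called higher.

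Heparan sulfate is the sister chain built on the same linker. Of 11 tested genes of its synthesis and sulfation, 4 rose and 3 fell, with a median log2 change of 0.017. The count of lower genes was 1 without WT replicate 3 or Trem2_KO replicate 3, with total counts and with DESeq2. Sulf2, an enzyme that removes 6-O-sulfate from heparan sulfate outside the cell, was at 10.3, 9.58 and 10.7 CPM in WT and 25.6, 26 and 25.6 CPM in Trem2_KO. The groups lay far apart, with a log2 change of 1.33 (SE 0.0919, edgeR adjusted p = 1.32e-17), the largest absolute change among the 58 tested genes of the lists.

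Ndst1, which deacetylates and sulfates the nitrogen of glucosamine, rose by 0.35 (edgeR adjusted p = 6.97e-09). Extl3, which starts heparan chains, rose by 0.17 (adjusted p = 0.000282). Ext1, a subunit of the polymerase, rose by 0.21 (adjusted p = 0.00696), a call lost without WT replicate 2 (adjusted p = 0.0921) or Trem2_KO replicate 1 (0.0551) and with DESeq2 (0.057). Endothelial markers had 6 of 8 genes called higher and 1 lower, with sums of 1920 to 1940 CPM in WT and 1860 to 1870 CPM in Trem2_KO. The gene called lower, Cdh5, made up most of the sum (1260 and 1130 CPM on average), and the list's median log2 change was 0.36. The part of endothelial cells in the rises of these heparan sulfate genes was not tested.

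Of the remaining carbohydrate sulfotransferases, 3 of 11 were tested with edgeR and 0 were called, with a median log2 change of 0.14. Chst2, at 0.915 ± 0.266 and 1.59 ± 0.513 CPM (SD, n = 3), had a log2 change of 0.79 (edgeR adjusted p = 0.0767), and was called without Trem2_KO replicate 2 (adjusted p = 0.0467). Chst1 and Chst8 had log2 changes of 0.14 and 0.029, and Chst4, Chst5 and Chst9 were at 0 reads in all libraries.

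**Figure D3:**
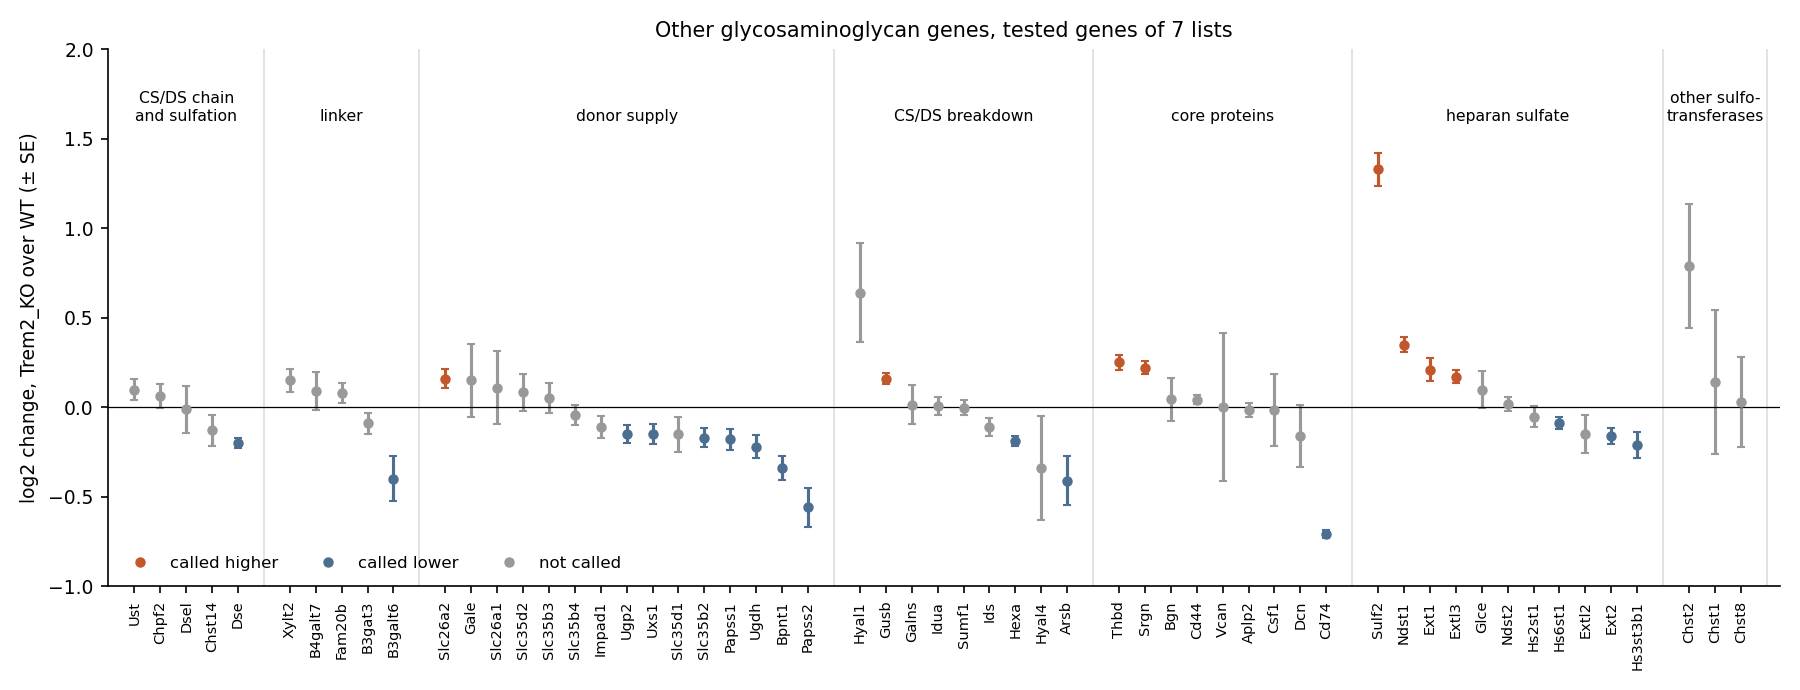
Log2 change between Trem2_KO and WT, with its SE, for the tested genes of 7 lists, with 1 gene left out (CS, chondroitin sulfate; DS, dermatan sulfate). Orange genes were called higher, blue ones lower and grey ones not called; Sulf2 at 1.33 is the highest point and Cd74 at -0.71 the lowest.

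The genes whose pattern over the 6 libraries was nearest to that of Chst11 were found among 11419 other protein-coding genes with a mean of at least 1 CPM. The measure was the root mean square distance of centred log2 CPM. The nearest were Gpnmb, a lysosomal glycoprotein of lipid-associated macrophages, at a distance of 0.245, and Cyp2b9, a cytochrome P450, at 0.264. Spp1, which encodes osteopontin (0.271), the tetraspanin Cd63 (0.365) and the fatty acid hydroxylase Cyp4a14 (0.441) followed. Cyp2b9 had 2, 0 and 2 reads in WT and 48, 68 and 55 in Trem2_KO, a pattern of few reads as in Chst11. Gpnmb had 52 to 63 reads in WT and 1083 to 1146 in Trem2_KO. The likeness reflects the difference between the groups, on which Chst11 was chosen, and carries no test.

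**Figure D4:**
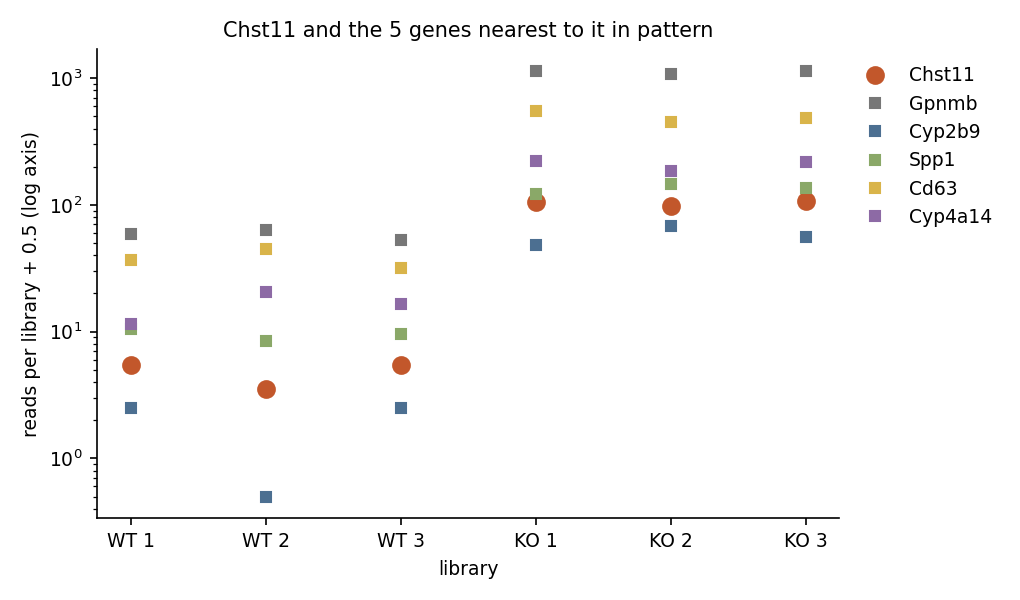
Reads per library plus 0.5, on a log axis, for Chst11 (orange circles) and the 5 genes nearest to it in pattern (squares), by WT and Trem2_KO (KO) library. Chst11 lies at 3 to 5 reads in WT and 97 to 107 in Trem2_KO, and each of the other 5 genes is also higher in every knockout library than in every WT library.

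Markers of cells that the sort could hold were set beside the rise of Chst11. Over all tested genes 15.3% were called higher and 15.1% lower. Lipid-associated macrophage markers had 8 of 8 genes called higher, with sums of 46.2 to 49.1 CPM in WT and 329 to 340 CPM in Trem2_KO. Of these markers, Gpnmb, Spp1 and Cd63 are also among the 5 genes nearest to Chst11 in pattern. Monocyte markers had 3 of 8 genes called higher and 1 called lower, with sums of 99 to 101 and 109 to 113 CPM, and their median log2 change was 0.29. The gene called lower, Plac8, made up most of the sum (79.9 and 68.7 CPM on average). Those called higher, Ccr2, Cx3cr1 and Chil3, had log2 changes of 1.45, 1.46 and 1.81, and 4 were not called. Chil3 had at most 6 reads in any WT library. Of 7 tested stellate cell markers 1 was called higher, with sums of 172 to 179 and 212 to 213 CPM. That gene, Ecm1, made up most of the sum (160 and 200 CPM on average), and the list's median log2 change was -0.4, the other 6 having negative changes that were not called. B cell markers had 2 of 5 tested genes called lower (32.6 to 37.4 and 23.8 to 28.7 CPM). T and NK cell markers had 1 of 2 tested genes called higher (5.87 to 7.6 and 7.58 to 8.54 CPM). Neutrophil markers (4.66 to 5.61 and 4.11 to 4.85 CPM, with Ly6g at 0) and platelet markers (18.4 to 23 and 22.1 to 23.7 CPM) had 0 of 3 tested genes called each with edgeR, and the cholangiocyte markers, at most 1.4 CPM in sum, were too low to test. The other marker lists had no gene at 0 in all libraries. The part of any of these cells in the rise of Chst11 or Chsy1 was not tested.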

How the data were processed

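Libraries (3 WT, 3 Trem2_KO) were grouped by their titles. The deposited counts are raw whole numbers per gene. Per the submitters' processing notes, which give no roles, the builds were GRCm38 and mm10 and the tools DESeq2 1.16.1, featureCounts 1.5.0-p3 and HISAT2 2.0.5. The deposited FPKM equal count over gene length over a constant per library, 0.989 to 1.02 times its total. The sources used here do not state strand or multi-mapping settings. Deposited coordinates of the 8 genes equal those of GENCODE M21.

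The main test was edgeR 4.0.16 under R 4.3.3, a robust quasi-likelihood fit of genotype on counts after filterByExpr and TMM scaling, over 13776 genes, with Benjamini-Hochberg adjustment. CPM are TMM-scaled. Standard errors follow from the quasi-F statistic. The script was tested on simulated data. Log2 CPM for patterns used a prior count of 2. Alternatives used DESeq2 1.42.0 and limma 3.58.1.

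The members, lists and tests were chosen with earlier results of these data known. Named genes are the 8 members, Trem2, all measured genes of the closest list, and in each other list those called with an absolute log2 change of at least 0.5, filled by smallest p to 4. Overlapping genes and the 5 nearest patterns are also named. Slc26a2, Esm1, Marco, Ecm1, Plac8, Ccr2, Cx3cr1, Chil3 and Cdh5 were singled out after their values were seen. The values of 1 breakdown gene are not reported here.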

Additional observations from a re-analysis of the deposited data

How the results depend on the processing

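Most alternatives changed 1 choice at a time. The fits of FPKM with limma changed unit, scaling and model together, one of them also dropping the filter. DESeq2 changed filter, scaling and model together. The fixed coefficient of variation also replaced the quasi-likelihood test with a likelihood ratio test. Leaving out each library gave ratios of 19 to 23.8 for Chst11, 1.31 to 1.44 for Chsy1 and 0.853 to 0.899 for Chst12. The log2 change of Chst11 was 4.22 to 4.53 in fits of counts, and 1.0 and 3.0 on log2(FPKM + 1) and log2(FPKM + 0.1), where the pseudocount exceeds its WT level of 0.0499 FPKM. Over all genes, DESeq2 called 1385 lower, a biological coefficient of variation fixed at 0.2 left 268 higher and 103 lower, and unfiltered log2(FPKM + 1) gave 960 higher and 1019 lower. Of the 94 genes of the pathway lists, 7 were called lower with DESeq2 and 6 with unfiltered FPKM, against 16. The fixed coefficient left 1 higher, Sulf2, and 0 lower. Leaving out each library gave 7 to 10 higher and 10 to 17 lower. In TPM the ratios of the 4-O-sulfotransferases, Chst15 and all sulfotransferases were 1.05, 1.05 and 1.06. Among the members and named genes, uncalled log2 changes that turned sign were Chst15 (0.0029 with total counts, -0.065 to 0.01 without each library), Csgalnact2 (-0.0047 with no filter, -0.022 to 0.044), Dsel (0.02 with total counts, -0.14 to 0.1 without each library), Chst1 (-0.03 to 0.26) and Chst8 (-0.09 to 0.16). The cause of these shifts was not tested. With the replicate number as a block, 2119 genes were called higher and 2111 lower, and 8 and 16 of the pathway genes, so the block changed none of these counts by over 1.5 times. Same-numbered libraries had correlations of deviations of -0.00787, 0.00313 and 0.0361, and libraries of unlike number had -0.0264 to 0.0234. The highest value was that of replicate 3 of both groups, while Trem2_KO replicate 1 correlated best with WT replicate 2 (0.0186). With 3 libraries per group, these values cannot show whether same-numbered libraries share more than a number. Depth limits Chst7, Csgalnact1 and the WT level of Chst11, each at 18 reads or fewer per library.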
